A study of Mus musculus with 10 samples.

Results

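The calcium/calmodulin-dependent kinases and the phosphatase calcineurin were followed in RNA of the dissected granule cell layer in the dorsal dentate gyrus. This is a region of the hippocampus that receives cortical input. The genes are the 10 rows of the deposited count table, out of 49315, whose Ensembl identifier carries the symbol Camk2a, Camk2b, Camk2d, Camk2g, Camk4, Camkk1, Camkk2, Camkv, Ppp3ca or Ppp3cb. All 10 passed the low-count filter and are among the 17080 genes tested. Each library came from 1 male C57 BL/6 mouse, with 5 mice in a group titled cocaine self-administration and 5 in a group titled saline self-administration. The labels state no age, dose, number of sessions or time since the last session. The tissue was a dissected layer and not sorted cells, so neighbouring cell types can contribute RNA.

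Calcium that enters a neuron through NMDA receptors or voltage-gated channels binds calmodulin, and the complex switches on kinases and a phosphatase that act against each other at the synapse. CaMKII, built from alpha, beta, gamma and delta subunits, phosphorylates itself after a strong calcium signal and stays active, and it is required for long-term potentiation in the hippocampus. CaMKIV works mainly in the nucleus, where it phosphorylates CREB, and is itself switched on by the upstream kinases CaMKK1 and CaMKK2. Calcineurin, which responds to weaker calcium signals, takes phosphate off NFAT, inhibitor-1 and other substrates and is tied to long-term depression. The comparison asks whether the RNA levels of these enzymes differ between mice of the cocaine and the saline group.

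The families hold close relatives, so their coding sequences were compared to see how far a read could belong to more than 1 gene. Over the 8 pairs within the CaMKII, calcineurin and CaMKK families, the longest identical run between coding transcripts (GENCODE M21, mm10) was 32 bases, between Camk2a and Camk2b. The run was 29 bases for Camk2a and Camk2g and for Camk2b and Camk2g, and 23 bases for each CaMKII pair with Camk2d. It was 20 bases for Ppp3ca and Ppp3cb and 14 bases for Camkk1 and Camkk2. The region of coding bases 313 to 344 of Camk2b, Camk2d and Camk2g, where the runs of Camk2b with both others lie, is shown to let these sequences be compared. It crosses from exon 5 to exon 6 in each transcript used, so the genomic spans include an intron, and capitals mark the 3 positions that are not the same in all 3 genes.
Camk2b, chr11:5992890-5997911, minus strand: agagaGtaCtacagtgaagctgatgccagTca
Camk2d, chr3:126767551-126770787, plus strand: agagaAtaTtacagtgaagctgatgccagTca
Camk2g, chr14:20766223-20770092, minus strand: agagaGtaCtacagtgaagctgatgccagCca
The longest run shared by the calcineurin genes, agaaacaagatccgagcaat, lies in exon 11 of both, at chr3:136921865-136921884 on the plus strand in Ppp3ca and chr14:20509449-20509468 on the minus strand in Ppp3cb. A read longer than these runs that lies within a coding sequence meets a base that separates the pair. The sources used here do not give the read length or the handling of reads with several matches, and noncoding exons were not compared.

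Total counts ran from 34991548 to 46481533 per library. In edgeR's quasi-likelihood test with Benjamini-Hochberg adjustment, 0 of the 17080 genes passed an adjusted p of 0.05, and at an unadjusted p under 0.05 there were 953 genes with higher and 568 with lower values, while DESeq2 called 16 genes (0.0792% of 20198) and limma voom with sample weights 95 (0.556% of 17080). The dissection carried granule cell RNA, as the 7 granule cell markers summed to between 1106 and 1969.6 CPM (counts scaled to a common TMM-adjusted library total) with cocaine and 1446 to 1982 CPM with saline. These sums do not measure enrichment. The 7 CA2 and CA3 pyramidal cell markers summed to 1242 to 1763 CPM with cocaine and 1358 to 1989 CPM with saline. Within that list Nptx1 alone had means of 1132 and 1305 CPM. The 5 thalamus markers summed to 209 to 881 CPM and 363 to 580 CPM. Cocaine replicate 5 lay apart on the first principal component, at −45.1 where the others lay between −16.5 and 23.1, and without it edgeR called 129 genes. It also held the highest sum of the 8 choroid plexus markers, 4174 CPM, followed by cocaine replicate 1 and saline replicate 3 at 2681 and 1746 CPM. The 8 oligodendrocyte markers summed to 3659 to 9848 CPM with cocaine and 3610 to 5194 CPM with saline, and Neat1, Malat1 and Meg3 together to 1007 to 2467 CPM and 740 to 1214 CPM.

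The kinase and calcineurin genes had slightly lower means with cocaine, and none of the 10 passed the test in edgeR. All 10 had a log2 fold change (cocaine minus saline) below 0, where 46.4% of all tested genes did. Their changes ran from −0.21 for Camk2a to −0.04 for Camkv. The median was −0.11, beside 0.02 over all tested genes. At the adjusted threshold 0 of 10 were called, beside 0% of tested genes, and the smallest adjusted p was 0.556. Camk2a was the only member with an unadjusted p under 0.05 in edgeR with all libraries, and its p stayed under 0.05 in 6 of 17 alternative analyses and was 0.05 or more in the other 11. Over the 17 analyses 0 to 4 members had such a p, with 4 (Camk2a, Camkk1, Ppp3ca and Ppp3cb) when cocaine replicate 2 was left out. More genes passed that p in edgeR without this library, 1134 lower and 1210 higher of 17312 tested. With all libraries, the difference of Camk2a was in the lower direction, where 3.33% of tested genes passed that p. In the higher direction there were 0 members, where 5.58% of tested genes passed. The libraries of the groups overlapped in all 10 members, while they did not overlap in 1.38% of tested genes. These 10 values are not independent, since the genes share the same libraries. Without the 3 libraries richest in choroid plexus markers 8 of 10 were below 0, with a median of −0.07 beside −0.01 over all genes tested. Some other lists of genes lay on the other side of 0 in the same comparison. All 8 oligodendrocyte markers had a log2 fold change above 0, from 0.55 for Mbp to 0.77 for Cldn11, as did all 8 choroid plexus markers, from 0.34 for Kl to 1.26 for Ttr, and all 3 nuclear noncoding RNAs, from 0.14 for Malat1 to 0.89 for Meg3. Other lists lay on the same side as the members, with all 7 granule cell markers and all 6 astrocyte markers below 0. Also below 0 were 4 of 5 endothelial and 5 of 7 GABAergic interneuron markers, and the remaining lists had markers on both sides. None of these markers was at 0 in any library. The part of these RNAs in the members' lower values was not tested.

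**Figure D1:**
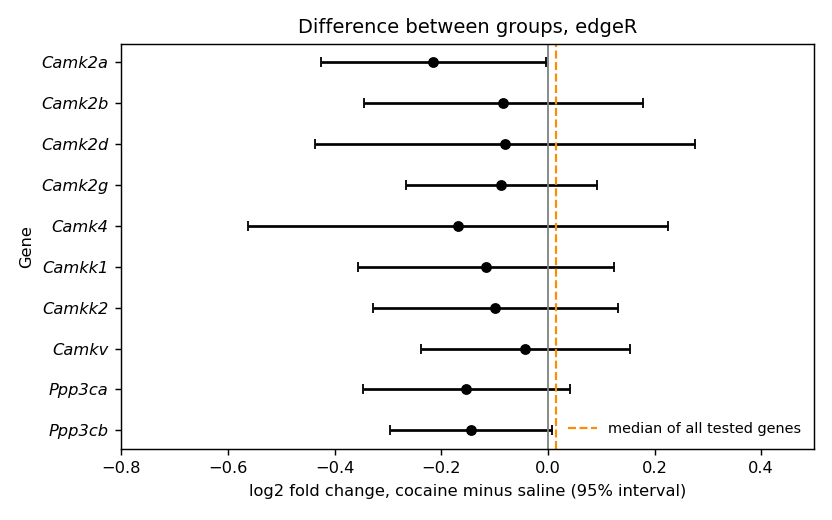
Log2 fold change of each gene (horizontal axis, cocaine minus saline, edgeR) with its unadjusted 95% interval; the grey line marks 0 and the dashed line the median of all tested genes, 0.02. All 10 points lie left of 0, and every interval except that of Camk2a reaches past 0.

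The most abundant RNA of the set was that of a CaMKII subunit. Camk2a, which codes for the alpha subunit and whose RNA is carried into dendrites, lies on chromosome 18 from 60925618 to 60988152 (mm10, GENCODE M21). In cocaine replicates 1 to 5 it stood at 3451, 4793, 4232, 3992 and 3602 CPM, and in saline replicates 1 to 5 at 5394, 4505, 4190.4, 4341 and 4863 CPM. Cocaine replicates 1, 4 and 5 lay below every saline library, while cocaine replicate 2 lay above 3 of the 5 saline libraries. The cocaine mean was 4014 ± 534 CPM and the saline mean 4659 ± 481 CPM (SD, n = 5). The log2 fold change was −0.21 (SE 0.10), a difference of −13.8% with a 95% interval from −25.6% to −0.264%. Its unadjusted p was 0.0465 and its adjusted p 0.556 in edgeR. The difference ran from a log2 fold change of −0.29 without cocaine replicate 2 to −0.16 without saline replicate 1, where the unadjusted p was 0.131, and it was −0.14 without the 3 libraries richest in choroid plexus markers, with an unadjusted p of 0.146. In bulk tissue, fewer cells of a type and less RNA per cell cannot be told apart. The granule cell markers were lowest in the same 2 libraries as Camk2a, cocaine replicates 5 and 1, at 1106 and 1211 CPM in sum, and all 7 of these markers had a log2 fold change below 0, from −0.25 for Lct to −0.06 for Calb1. Cocaine replicates 5 and 1 were also lowest for the 7 CA2 and CA3 pyramidal cell markers, at 1321 and 1242 CPM in sum. The same held for the 7 GABAergic interneuron markers, at 530 and 542 CPM. Of these lists, 2 and 5 markers had a log2 fold change below 0, and 5 and 2 above. The 8 oligodendrocyte markers, all with a log2 fold change above 0, had their highest sums in cocaine replicates 5, 4 and 1. These sums were 9848, 7504 and 6491 CPM, with saline replicate 3 next at 5194 CPM. Those 3 cocaine libraries are the ones below every saline library for Camk2a. The part of any of these cell types in the difference was not tested.

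Camk2b, the beta subunit, which binds actin and anchors CaMKII in spines, is found at 5969644 to 6066362 of chromosome 11. Its levels were 1992, 2765, 2518, 2356 and 1659 CPM in cocaine replicates 1 to 5, and 2414, 2415.5, 2057, 2610.0 and 2465 CPM in saline replicates 1 to 5. The cocaine libraries spread more widely than the saline ones and enclosed them, with a coefficient of variation of 19.4% against 8.52%. Its log2 fold change was −0.08 (SE 0.12) with a 95% interval from −0.35 to 0.18. It was 0.01 without cocaine replicate 5 and −0.17 without cocaine replicate 2. Camk2g, the gamma subunit, which carries calmodulin from the synapse to the nucleus, ran from 234 to 285 CPM with cocaine and from 249 to 306 CPM with saline. Its log2 fold change of −0.09 (SE 0.08) had a 95% interval from −0.27 to 0.09 and was −0.04 without saline replicate 4.

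Camk2d, the delta subunit, best known from heart muscle, did not follow the rest of its family across libraries. It stood at 85.1, 45.6, 50.6, 68.0 and 68.4 CPM in cocaine replicates 1 to 5 and at 55.1, 85.3, 71.8, 57.4 and 66.2 CPM in saline replicates 1 to 5. Its highest values lay in saline replicate 2 and cocaine replicate 1 and its lowest in cocaine replicate 2, a library in which Camk2b and Camkk1 were at their highest. The level in the highest library was 1.87 times that in the lowest. The log2 fold change was −0.08 (SE 0.17) with a 95% interval from −0.44 to 0.28, and 0.02 without cocaine replicate 2 or without saline replicate 2. It was −0.21 without cocaine replicate 1 and −0.27 without the 3 libraries richest in choroid plexus markers. The 5 mossy cell markers, of hilar excitatory neurons beside the layer, summed to 231 CPM in saline replicate 2, 195 CPM in cocaine replicate 1 and 114 CPM in cocaine replicate 2, and to 201 CPM in cocaine replicate 4. The 5 thalamus markers were also highest in cocaine replicate 1 and saline replicate 2, at 881 and 580.2 CPM, and lowest in cocaine replicate 2, at 209 CPM. Sums of the endothelial, astrocyte and microglia markers were also lowest in cocaine replicate 2, at 134, 1639 and 245 CPM. These were highest in cocaine replicate 5. The part of any of these cell types in the level of Camk2d was not tested.

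CaMKIV and its activators came next. Camk4, on chromosome 18 from 32934931 to 33191228, had the fewest counts of the 10 genes, 543 to 1098 per library. Its levels were 17.1, 21.9, 19.4, 14.5 and 19.2 CPM in cocaine replicates 1 to 5 and 27.5, 15.8, 23.6, 13.3 and 23.3 CPM in saline replicates 1 to 5. Saline libraries held both the 3 highest values and the lowest one, so the cocaine values lay inside the saline range. The coefficient of variation was 28.6% with saline and 15.1% with cocaine. The log2 fold change was −0.17 (SE 0.18), with a 95% interval from −0.56 to 0.23, the widest of the 10, and it ran from −0.29 without saline replicate 4 to −0.05 without saline replicate 1. The cocaine mean of Camkk1 was 392 ± 66.4 CPM and the saline mean 425 ± 41.9 CPM (SD, n = 5), and its log2 fold change was −0.12 (SE 0.11). It ran from −0.21 without cocaine replicate 2 to −0.06 without cocaine replicate 5, and was −0.02 without the 3 libraries richest in choroid plexus markers. For Camkk2, which also activates AMP-activated protein kinase, the means were 148 ± 17.6 and 159 ± 21.4 CPM (SD, n = 5), a log2 fold change of −0.10 (SE 0.11), which ran from −0.17 without saline replicate 2 to −0.04 without saline replicate 1. Camkk1 was lowest in cocaine replicate 5 and Camkk2 in saline replicate 2, at 329 and 127 CPM.

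Camkv codes for a vesicle-associated protein that resembles CaM kinases, binds calmodulin and has no known kinase activity. It had the smallest difference of the set. Its levels ran from 566 to 724 CPM with cocaine and from 596 to 744 CPM with saline, with means of 643 ± 74.9 and 662 ± 57.1 CPM (SD, n = 5). The log2 fold change was −0.04 (SE 0.09), with a 95% interval from −15.2% to 11.2%. Without the 3 libraries richest in choroid plexus markers its log2 fold change was 0.03.

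Calcineurin is made of a catalytic A subunit, which binds calmodulin, and a small calcium-binding B subunit. Ppp3ca, the alpha form of the catalytic subunit, lies on chromosome 3 from 136670124 to 136937727. Its levels were 2673, 3750, 3311, 3252 and 3058 CPM in cocaine replicates 1 to 5 and 3635, 3351, 3198, 3887 and 3770.0 CPM in saline replicates 1 to 5. Cocaine replicates 1 and 5 lay below every saline library and saline replicates 4 and 5 above every cocaine library. The log2 fold change was −0.15 (SE 0.09), with a 95% interval from −21.4% to 2.89% and an adjusted p of 0.634 in edgeR. It ran from −0.21 without cocaine replicate 2 to −0.09 without cocaine replicate 1. Ppp3cb, the beta form, lies on chromosome 14 from 20499364 to 20546573. Its values were 378, 421, 380.4, 386 and 390.4 CPM in cocaine replicates 1 to 5 and 467, 384, 432, 419 and 460.2 CPM in saline replicates 1 to 5. All 5 cocaine libraries lay below the saline mean, and 3 of the 5 saline libraries lay above every cocaine library. It had the smallest spread of the 10 genes, with a coefficient of variation of 4.46% within cocaine and 7.77% within saline. The log2 fold change was −0.14 (SE 0.07), with a 95% interval from −18.6% to 0.507%, an unadjusted p of 0.0604 and an adjusted p of 0.579 in edgeR. Leaving out single libraries moved it between −0.19 and −0.12.

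**Figure D2:**
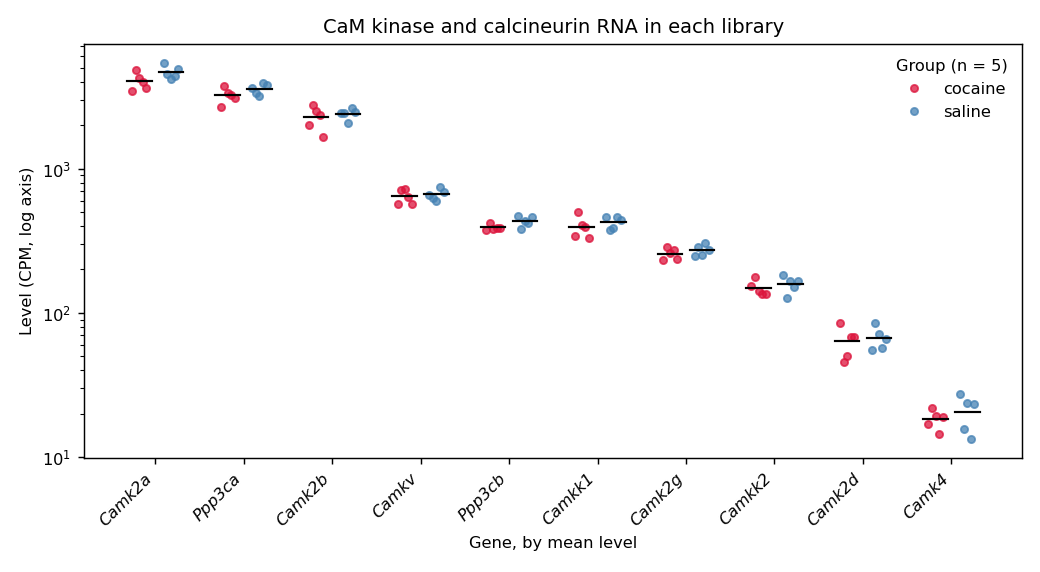
Level of each gene in each of the 10 libraries (CPM, log axis), with genes in order of mean level; points are libraries and black lines group means (n = 5). Cocaine and saline points overlap for every gene, and the mean levels run from 4336 CPM for Camk2a to 19.6 CPM for Camk4.

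Levels were compared between genes per kilobase of merged exons. Camk2a led at 581 ± 78.7 CPM per kilobase over the 10 libraries (SD), followed by Ppp3ca at 339 ± 37.6 and Camk2b at 255 ± 36.1. After these came Camkv at 173 ± 16.9, Camkk1 at 110 ± 14.8, Ppp3cb at 46.7 ± 3.78 and Camk2g at 41.5 ± 3.71 CPM per kilobase. Camkk2 at 14.1 ± 1.77, Camk4 at 6.00 ± 1.39 and Camk2d at 2.91 ± 0.597 CPM per kilobase closed the order. The ranges of Ppp3cb and Camk2g overlapped, with Ppp3cb above Camk2g in 8 of 10 libraries. The ranges of Ppp3ca and Camk2b and those of Camk2b and Camkv overlapped too, but the first of each pair was the higher in all 10 libraries. Other neighbours did not overlap by this length. The merged exons of Camk2d add up to 22493 bases, against 3259 for Camk4. Per kilobase of the longest coding sequence their order turned, with 40.9 CPM for Camk2d and 13.9 CPM for Camk4. The other 8 genes kept their places by mean, but Camkk1 and Ppp3cb came close together, at 270 and 261 CPM per coding kilobase. Overlap between libraries was not compared by coding length.

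The balance within each family was compared as a log2 ratio of counts in the same library, in which the library size cancels. Camk2a exceeded Camk2b by 0.84 ± 0.16 log2 units with cocaine and 0.96 ± 0.16 with saline (SD), a difference of −0.12 (SE 0.10). Replicate by replicate, the ratio was 0.79, 0.79, 0.75, 0.76 and 1.12 with cocaine and 1.16, 0.90, 1.03, 0.73 and 0.98 with saline. Of the cocaine libraries, 4 lay close together near the lower end of the saline range and replicate 5 lay near its upper end. Per length, Camk2a made up 65.0% ± 1.99 of CaMKII RNA with cocaine and 66.9% ± 2.54 with saline (SD, n = 5), Camk2b 29.7% ± 2.20 and 28.2% ± 2.03, Camk2g 4.89% ± 0.333 and 4.61% ± 0.546, and Camk2d 0.204% to 0.525% over the 10 libraries. By the longest coding sequence its mean share was 1.02% with cocaine and 0.928% with saline, and it had the smallest share by either length.

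The other ratios differed by less than their SE. Camk2d to Camk2g differed by −0.01 (SE 0.24), Ppp3ca to Ppp3cb by −0.02 (SE 0.08) and Camkk1 to Camkk2 by −0.03 (SE 0.11) on the log2 scale. Ppp3ca had 8.16 times the counts of Ppp3cb with cocaine and 8.25 times with saline, as geometric means. By two-sided exact permutation, the p of the 4 ratios was 0.294 for Camk2a to Camk2b, 0.984, 0.841 and 0.786, and 0.984 for each after adjustment over the 4. Without cocaine replicate 5 the difference for Camk2a to Camk2b was −0.19, with an exact permutation p of 0.0714 and an adjusted p of 0.286. Without the 3 libraries richest in choroid plexus markers it was −0.18, and that for Camk2d to Camk2g was −0.24.

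**Figure D3:**
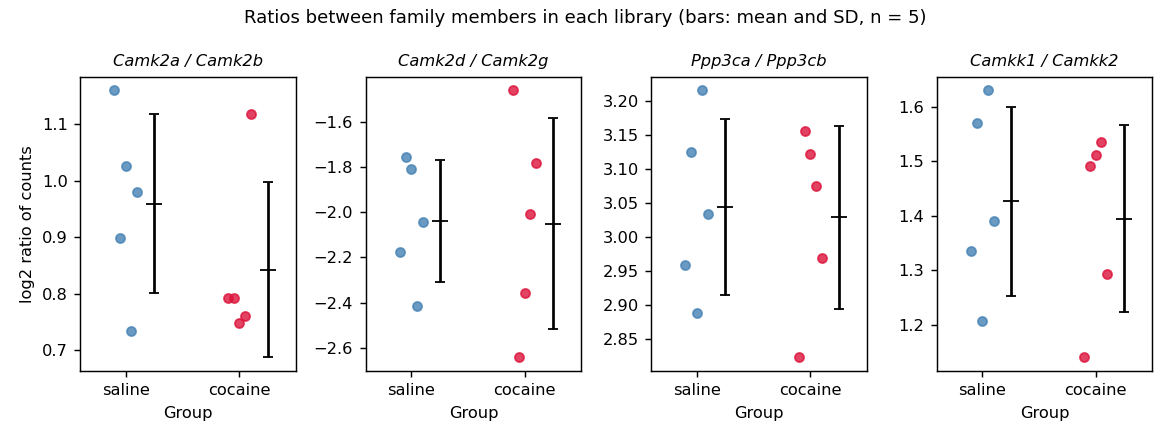
Log2 ratio of counts between family members in each library, 1 panel per pair with its own vertical axis; points are libraries and bars the mean with SD (n = 5). In the Camk2a to Camk2b panel 4 cocaine libraries sit between 0.75 and 0.79 and the other one at 1.12.

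Across libraries some of the genes had similar profiles and others did not. The likeness of 2 genes was measured as the root mean square difference between their log2 levels after each was centred on its own mean over the 10 libraries. Of the 45 pairs, Camkk1 and Ppp3ca were the most alike at 0.08, followed by Camkv and Ppp3ca at 0.09. The 4 largest differences all involved Camk2d, up to 0.48 with Camk4. Some pairs without Camk2d also differed more, such as Camk2b and Camkk2 at 0.23 and Camk4 and Ppp3ca at 0.33. For comparison, the median of 9901 other genes of at least 10 CPM differed from Ppp3ca by 0.20 and from Camk2a by 0.22. Cocaine replicate 1 held the lowest value of 5 of the 10 genes and cocaine replicate 5 of 2, while saline replicate 1 held the highest value of 4 and saline replicate 4 of 3. In saline replicate 5 all 10 genes lay above their own mean CPM, and in cocaine replicate 5 all but Camk2d lay below it. The groups were not split cleanly, since in cocaine replicate 2 all but Camk2d lay above their mean, while 6 of the 10 lay below it in saline replicate 2 and 6 in saline replicate 3. Cocaine replicates 1 and 5 are also the libraries with the highest choroid plexus marker sums, and the part of that tissue in these levels was not tested.

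**Figure D4:**
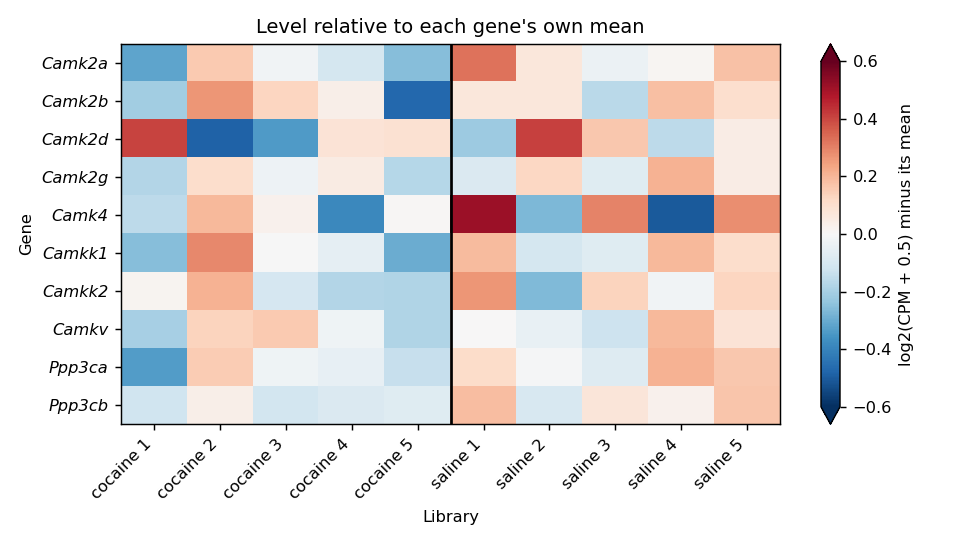
Level of each gene in each library as log2(CPM + 0.5) minus the gene's mean over the 10 libraries, red above and blue below it, with a line between the groups. Cocaine replicate 1 and cocaine replicate 5 are blue for most genes, and Camk2d runs opposite to Camk2b in cocaine replicates 1 and 2.

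By the same measure, over 9901 other genes of at least 10 CPM, the closest to Camk2a were Robo2 at 0.05, an axon guidance receptor, Fgf13 at 0.06, which binds sodium channels, and Arf3 at 0.06, a small GTPase of the Golgi. Closest to Camk4 were Lats2 at 0.10, a kinase of the Hippo pathway, Pfkfb3 at 0.11, a regulator of glycolysis, and Chgb at 0.13, a granin of dense-core vesicles. For Ppp3ca they were Cdc42se2 at 0.04, Fbxo34 at 0.05 and Gorab at 0.05. The median gene differed from Camk2a by 0.22, from Camk4 by 0.35 and from Ppp3ca by 0.20. The nearest genes are the best of many and share the libraries and their depth with the member, so this is a description of 10 libraries.

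The other genes of the pathway lay on both sides of 0. Of 32 listed genes 31 were tested, with 16 above a log2 fold change of 0, where 53.6% of all tested genes were, and 15 below. The median was 0.00. In edgeR 0 passed the adjusted threshold, beside 0% of tested genes, and 0 had an unadjusted p under 0.05 in either direction, beside 3.33% lower and 5.58% higher. DESeq2 and voom called 0 of them too, beside 0.0792% and 0.556% of the genes each tested. At the adjusted threshold, with shares this small, a count of 0 among 31 genes is near the background. The unadjusted shares are larger and are not covered by this. Many of these small values moved when a single library was left out. Without cocaine replicate 5 there were 25 of the 31 that changed sign or moved by over 1.5 times, with 12 above 0 and 19 below. Leaving out any other single library gave 9 to 16 such genes. A value near 0 needs only a small shift to be counted here. Ppp3r2, the testis form of the B subunit, was not tested, at 0.0474 to 0.341 CPM. Calm2 and Calm3, which code for calmodulin, were at −0.03 (SE 0.08) and −0.07 (SE 0.07). The proteins that hold calmodulin in reserve, Nrgn, Gap43 and Pcp4, had log2 fold changes of 0.00, 0.01 and 0.19. Without cocaine replicate 5 these were −0.02, −0.11 and 0.01.

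The CaMKII inhibitor proteins, Camk2n1 and Camk2n2, were at 0.00 (SE 0.13) and −0.04 (SE 0.18). Camk2n1 had 2009.7 CPM in cocaine replicate 5, where the other cocaine libraries had 1197 to 1281 CPM. Leaving that library out gave log2 fold changes of −0.17 for Camk2n1, with an unadjusted p of 0.00997 and an adjusted p of 0.198 in edgeR, and −0.20 for Camk2n2. Without the 3 libraries richest in choroid plexus markers they were −0.17 and −0.33. Of the other calmodulin-regulated kinases, 3 were above 0 and 4 below, from −0.28 (SE 0.14) for Camk1d to 0.48 (SE 0.37) for Dapk2, a kinase of cell death measured at 0.655 to 2.66 CPM. Dapk2 was at 0.24 without cocaine replicate 1 and 0.00 without the 3 libraries richest in choroid plexus markers, and Camk1d at −0.18 without saline replicate 1. Camk1, a kinase of neurite growth, was at 0.29 (SE 0.18), with its highest level, 73.6 CPM, in cocaine replicate 5 and 47.2 CPM in the next library, and at 0.07 without that replicate. The regulatory subunit of calcineurin in brain, Ppp3r1, stood at −0.14 (SE 0.09), close to its catalytic partners Ppp3ca and Ppp3cb, and Ppp3cc, another catalytic form, at 0.05 (SE 0.10). Without cocaine replicate 1 Ppp3r1 was at −0.09, and without saline replicate 1 Ppp3cc was at −0.01.

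Calcineurin's inhibitors and anchors had 2 genes above 0 and 4 below. Rcan1, an inhibitor that NFAT itself switches on, had means of 56.6 ± 6.66 CPM in the cocaine and 58.1 ± 5.32 CPM in the saline group (SD, n = 5), and a log2 fold change of −0.04 (SE 0.09). Akap5, which ties calcineurin to the postsynaptic membrane, was at −0.13 (SE 0.14). Ppm1f and Ppm1e, phosphatases that switch CaM kinases off, were at −0.03 (SE 0.10) and −0.13 (SE 0.12). Without cocaine replicate 5 Akap5 was at −0.04, Ppm1e at −0.03 and Rcan1 at −0.11. Among the substrates 6 of 7 were above 0, from 0.02 for Ppp1r1a to 0.20 for Nfatc1, with Nfatc4 at −0.27 (SE 0.26), or −0.08 without saline replicate 5. Ppp1r1b, known as DARPP-32, was at 0.19 (SE 0.15), and cocaine replicate 5 held its highest level, 80.6 CPM, with 52.8 CPM in the next library. Without that replicate its log2 fold change was 0.00.

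**Figure D5:**
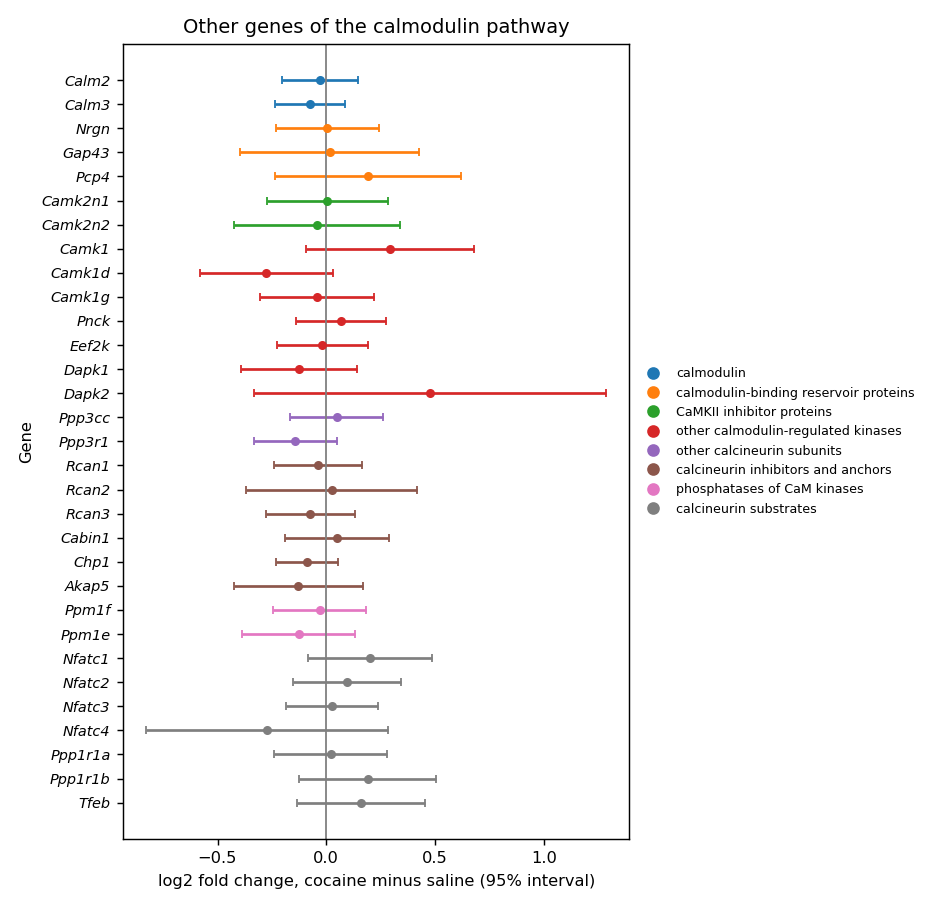
Log2 fold change (horizontal axis, cocaine minus saline, edgeR) with its unadjusted 95% interval for the 31 tested genes of the pathway list, coloured by role. All 31 intervals include 0, with 16 points above 0 and 15 below.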

How the data were processed

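Poly(A) RNA libraries (NEB Ultra II Directional, per the labels' protocols) of 5 cocaine and 5 saline mice were analysed. The authors deposited raw counts per Ensembl gene. Per the submitters' processing notes the tools were cutadapt, STAR, Cufflinks and HTSeq on mm10; the sources used here do not give versions, the annotation release or the strand setting. Symbols, positions and exon lengths came from GENCODE M21, which matched 49040 of 49315 identifiers; the other 275, with 0.0321% of all counts, entered the fit under their identifier. Without a known strand setting, reads of a gene and an overlapping antisense gene cannot be told apart.

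The test was run in edgeR 4.0.16 with R 4.3.3 (filterByExpr, TMM, quasi-likelihood F test, two-sided, Benjamini-Hochberg over 17080 genes, threshold 0.05). The SE is the log2 fold change over the square root of F, and 95% intervals use the fit's degrees of freedom and are not adjusted. CPM uses TMM-adjusted totals. Ratios used a pseudocount of 0.5 counts and exact permutation over all assignments, for which the smallest p is 0.00794. Each library is 1 mouse, so p sets the group difference against the variation between these mice. Over all 45 pairs of libraries, chi-square per degree of freedom was 14.8 or more, so none was a duplicate of another. Counts were simulated for this comparison over 17080 genes, with the changed genes drawn at random from all of them. Of these, 19 of 47 lowered 1.5-fold and 31 of 46 lowered 2-fold were called. Of those raised, 28 of 50 at 1.5-fold and 37 of 50 at 2-fold were called. In genes drawn this way smaller differences would often be missed. The rate for genes with the levels and spread of the members was not simulated. Alternatives were other scalings (RLE, upper quartile), no filter, DESeq2 1.42.0, limma 3.58.1 voom with sample weights, a replicate block, each library left out, and the 3 libraries richest in choroid plexus markers left out.

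All 10 members are named, with the genes of a fixed pathway list by role, of which 1 is not reported here, and for Camk2a, Camk4 and Ppp3ca the 3 closest genes of at least 10 CPM. Members and lists were chosen with earlier results of these data known.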

Additional observations from a re-analysis of the deposited data

Results flagged for a closer look

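Within-group gaps were checked in 90 groups of 5 libraries, and chance marks about 1 in 20 such groups. A single library stood apart from the other 4 in 5 cases. The log2 ratio of Camk2a to Camk2b was 1.12 in cocaine replicate 5, where the other cocaine libraries ran from 0.75 to 0.79. Camk2n1 stood at 2009.7 CPM in cocaine replicate 5, above 1197 to 1281 CPM in the others. Ppp1r1b stood at 80.6 CPM in the same library, above 44.6 to 52.8 CPM. Camk1d stood at 329.7 CPM in cocaine replicate 2, above 221 to 241 CPM. Camk1g stood at 9.04 CPM in saline replicate 4, below 12.6 to 13.4 CPM.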

How the results depend on the processing

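None of the 10 genes passed an adjusted p of 0.05 in any of 17 alternatives, where the smallest adjusted p was 0.210 in limma voom with sample weights for Ppp3cb. Direction was kept in 163 of 170 values. DESeq2 called 16 genes in all and voom 95, and leaving out single libraries gave 0 to 129. Without the 3 libraries richest in choroid plexus markers, the log2 fold change was 0.0397 for Camk2b, 0.0281 for Camkv, −0.14 for Camk2a and −0.27 for Camk2d, and the differences in ratio were −0.18 for Camk2a to Camk2b, −0.24 for Camk2d to Camk2g, 0.0336 for Ppp3ca to Ppp3cb and 0.0318 for Camkk1 to Camkk2; the cause was not tested. Leaving out single libraries gave −0.165 to 0.00859 for Camk2b, −0.205 to 0.0211 for Camk2d and −0.0878 to 0.00247 for Camkv. The unadjusted p of Camk2a lay between 0.00823 and 0.146 over the 17 alternatives, at 0.0515 with upper-quartile scaling and 0.0506 without a filter. Of the 31 pathway genes 10 to 17 were above 0 in these alternatives. For the ratios, leaving out single libraries gave −0.19 to −0.07 for Camk2a to Camk2b, −0.16 to 0.14 for Camk2d to Camk2g, −0.0546 to 0.0356 for Ppp3ca to Ppp3cb and −0.0865 to 0.0319 for Camkk1 to Camkk2. With a replicate block edgeR called 0 genes, and at an unadjusted p under 0.05 it had 735 genes higher and 385 lower, the log2 fold change of Camk2a was −0.22 with an unadjusted p of 0.0975, no longer under 0.05, and the ratio of Camk2a to Camk2b kept its difference of −0.12 with an exact p of 0.375, where 0.0625 is the smallest possible. The labels do not say that numbers pair mice, correlations of same-numbered libraries' deviations ran from −0.28 to 0.07 across genes, and 0 of 5 cocaine libraries matched their own number best. The number of mice limits what can be shown here: for Camk4 the interval runs from −32.3% to 16.9%.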
